A study of Homo sapiens with 21 samples.

Results

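CTGF, CYR61, ANKRD1, AMOTL2, THBS1, SMAD6, SMAD7, SKIL and TGFB1 are genes that report on YAP and TGF-beta signaling and on the extracellular matrix. They were chosen by gene symbol, under the older names CTGF (now CCN2) and CYR61 (now CCN1), and all 9 were among the 23368 genes listed and the 19694 genes tested. The cells were hTERT-HPNE, a human pancreatic line that was immortalized with telomerase and is not transformed, and their messenger RNA was sequenced. The study asked how the same cells respond to oxidative stress and to DNA double-strand breaks. There were 7 groups of 3 biological replicates, 21 libraries in all. They were untreated cells at 0 h, cells treated with 300 μM H2O2 for 4, 8 or 24 h, and cells treated with 400 ng/ml neocarzinostatin (NCS), a radiomimetic drug that breaks both DNA strands, for 4, 8 or 24 h. Treated cells received fresh medium with the drug, and untreated cells were harvested at the start. Against untreated cells, treatment and time in fresh medium cannot be told apart, while H2O2 and NCS at the same time share that history. Values are rLog values, which are log2 counts normalized for library size with differences shrunk toward the mean, most strongly for genes with few reads. They are not scaled by gene length, so levels were compared between groups and not between genes. In bulk samples, fewer cells of a kind and less RNA per cell cannot be told apart. The depth of each library is unknown, since the values hold no counts.

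YAP and its relative TAZ are held in the cytoplasm by the kinases of the Hippo pathway. When the kinases are off, they enter the nucleus, bind TEAD factors and raise genes such as CTGF, CYR61, ANKRD1 and AMOTL2, and they are known to respond to cell spreading and a stiff matrix. TGF-beta binds receptor kinases that phosphorylate SMAD2 and SMAD3, which enter the nucleus with SMAD4. SMAD6, SMAD7 and SKIL are feedback inhibitors of TGF-beta or bone morphogenetic protein signaling, and THBS1 codes for a secreted matrix protein that can release TGF-beta from its latent form.

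The labelled cell type was checked against its markers. Over all libraries VIM ran from 16.79 to 17.25, NES from 11.78 to 12.28, CDH2 from 12.15 to 12.68, CD44 from 13.58 to 13.84, TERT from 13.86 to 14.37, KRT18 from 11.38 to 11.85, KRT8 from 7.73 to 8.28 and the duct keratin KRT19 from 0.58 to 0.73. Of 10 acinar, islet and epithelial markers, PRSS1, CELA3A, INS and PDX1 were listed at 0 in every library, and MUC1 ran from 5.84 to 6.32. Of 8 blood and endothelial markers, CD3E and HBB were listed at 0 in every library, and CD68 ran from 9.93 to 10.57. Some markers moved with treatment. Of the 8 hTERT-HPNE markers, 2 were higher and 5 lower in H2O2 at 24 h (median -0.19), against 20.2% and 19.9% of all genes. In NCS at 24 h, 1 was higher and 4 lower (median -0.10), against 19.6% and 18.4%. Of the 6 blood and endothelial markers that could be tested, 3 were higher and 0 lower in H2O2 at 4 h, against 26.2% and 19.7%. They included PECAM1 (0.33) and VWF (0.26), whose values were low (2.02 to 2.42 and 3.02 to 3.41 over all libraries). In NCS at 24 h, 1 was higher and 0 lower, against 19.6% and 18.4%, and it was CD68 (0.52). CDH5 and PTPRC passed the test in neither comparison. The part of these shifts in the results was not tested. Replicate 2 of H2O2 at 8 h stood apart from its group, with a distance over all tested genes of 14.7 and 15.1 to its replicates against 11.4 between the other 2. In the remaining groups, distances between replicates were between 8.94 and 11.2. Called differences that rest on the H2O2 group at 8 h are given with and without that library. Spans, medians over genes and correlations are given with all 21 libraries only.

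Promoter windows of these genes were searched for letters that TEAD and SMAD factors bind, and for motifs of other factors. RefSeq windows (GRCh38.p14) of the 250 bases before the start were found for 8 of the 9 genes, all but CYR61, with 2 windows for AMOTL2 and 3 for SMAD7. Both strands were searched for the TEAD motif CATTCC, the SMAD motif GTCTAGAC, the cyclic AMP response element TGACGTCA and the AP-1 motif TGANTCA. These motifs were found in 11.9%, 0.182%, 1.65% and 6.57% of all 35116 windows. The 5 windows shown were picked with the results known, so motif and direction go together here by choice. They belong to genes that fell in H2O2 and hold CATTCC, and to SKIL, which rose the most in H2O2 at 4 h. They lie at chr6:131951373-131951622 (minus strand, CTGF), chr10:90921088-90921337 (minus strand, ANKRD1), chr3:134374448-134374697 (minus strand, the second AMOTL2 window), chr15:39580829-39581078 (plus strand, THBS1) and chr3:170357465-170357714 (plus strand, SKIL). Each ends 1 base before the start, and capitals mark the motifs, of which no 2 overlapped.
CTGF: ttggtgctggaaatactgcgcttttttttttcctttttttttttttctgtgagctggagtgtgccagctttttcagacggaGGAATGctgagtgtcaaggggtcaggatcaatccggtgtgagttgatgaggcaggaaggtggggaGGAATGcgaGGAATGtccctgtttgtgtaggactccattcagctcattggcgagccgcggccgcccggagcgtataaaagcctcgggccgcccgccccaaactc
ANKRD1: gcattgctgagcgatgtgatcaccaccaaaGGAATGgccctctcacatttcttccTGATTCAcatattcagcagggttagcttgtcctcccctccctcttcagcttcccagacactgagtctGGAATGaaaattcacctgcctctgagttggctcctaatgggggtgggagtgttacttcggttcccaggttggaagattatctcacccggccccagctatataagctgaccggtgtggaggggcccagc
AMOTL2: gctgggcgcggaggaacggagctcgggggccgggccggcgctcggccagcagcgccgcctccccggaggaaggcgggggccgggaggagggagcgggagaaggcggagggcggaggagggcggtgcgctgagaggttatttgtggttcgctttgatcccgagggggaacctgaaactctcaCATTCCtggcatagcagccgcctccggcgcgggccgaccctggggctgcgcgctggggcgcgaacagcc
THBS1: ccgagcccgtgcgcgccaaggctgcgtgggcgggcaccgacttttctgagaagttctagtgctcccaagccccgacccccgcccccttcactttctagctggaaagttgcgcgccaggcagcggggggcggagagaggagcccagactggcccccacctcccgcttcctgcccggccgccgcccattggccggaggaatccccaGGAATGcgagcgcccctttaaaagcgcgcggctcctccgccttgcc
SKIL: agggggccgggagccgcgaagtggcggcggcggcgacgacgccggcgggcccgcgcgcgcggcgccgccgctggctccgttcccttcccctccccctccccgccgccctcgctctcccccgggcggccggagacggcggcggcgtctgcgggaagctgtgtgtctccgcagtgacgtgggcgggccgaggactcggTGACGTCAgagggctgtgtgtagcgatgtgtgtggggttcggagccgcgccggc
The CTGF window held CATTCC 3 times, read on the opposite strand as GGAATG, and its last 2 copies began 104 and 95 bases before the start. ANKRD1 held it 2 times on the opposite strand and also an AP-1 motif that began 195 bases before the start. THBS1 held 1 copy on the opposite strand at 46 bases, and AMOTL2 1 copy in the same direction as the gene at 69 bases. SKIL held the cyclic AMP response element at 54 bases. SMAD6 held the SMAD motif GTCTAGAC 12 bases before the start, in a window at chr15:66701986-66702235 that is not shown. The first AMOTL2 window, the 3 SMAD7 windows and the TGFB1 window held none of the 4 motifs. These are matches of letters, and binding was not measured. Only exact letters within these 250 bases were searched, so a window without a motif does not show that its gene lacks a site.

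CTGF, CYR61, AMOTL2 and THBS1 fell in 1 or more groups of each drug and SMAD7 and SKIL rose, while ANKRD1 fell in H2O2 and rose in NCS at 4 and 8 h. SMAD6 rose in H2O2 at 4 h, and TGFB1 had the smallest span. Between the group means, SKIL spanned 0.96, SMAD7 0.93, THBS1 0.93, CTGF 0.73, CYR61 0.69, ANKRD1 0.58, AMOTL2 0.42, SMAD6 0.38 and TGFB1 0.14, while the median over all tested genes was 0.24. The largest SD of any group was 0.19, for both THBS1 in H2O2 at 8 h and SMAD6 in H2O2 at 4 h. The plot of values by library shows these patterns.

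**Figure D1:**
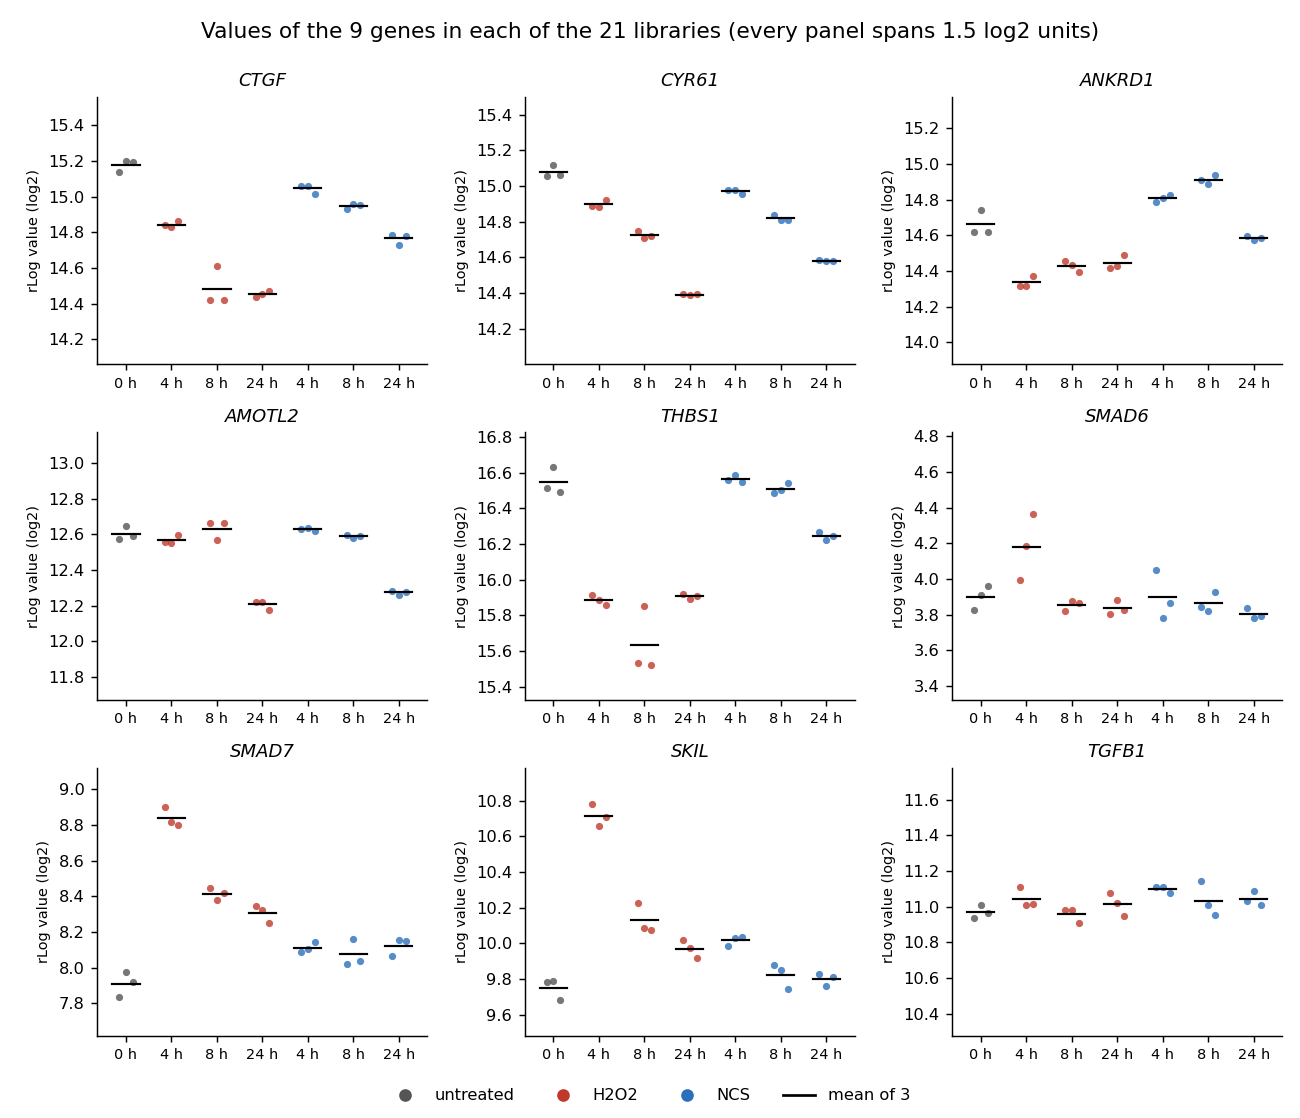
rLog values (log2) of the 9 genes in each library, with 0 h for untreated cells and then 4, 8 and 24 h after H2O2 (red) and NCS (blue); points are libraries and black lines are means of 3. Each panel spans 1.5 log2 units, so slopes can be compared: CTGF and CYR61 step down with both drugs, THBS1 drops in all 9 H2O2 libraries, and SMAD7 and SKIL peak in H2O2 at 4 h.

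In H2O2, at an adjusted p-value under 0.05 (limma, adjusted over all 19694 genes), 3 of the 9 genes were higher and 4 lower at 4 h, where 26.2% and 19.7% of all genes were. At 8 h, 2 were higher and 4 lower, against 18.8% and 18.6% of all genes, and without replicate 2 at 8 h the counts were 3 and 4, against 20.2% and 19.0%. At 24 h, 2 were higher and 5 lower, against 20.2% and 19.9%. In NCS, 4 were higher and 2 lower at 4 h, against 7.47% and 9.72% of all genes. At 8 h 2 were higher and 2 lower in NCS, against 10.5% and 13.3%, and at 24 h 1 was higher and 5 lower, against 19.6% and 18.4%. With aligned library medians, 7618 of the 19694 genes were called in NCS at 8 h in place of 4703. The median absolute difference from untreated cells over the 9 genes was 0.33 in H2O2 at 4 h, 0.35 at 8 h and 0.40 at 24 h, and over all genes it was 0.08, 0.06 and 0.07. The rLog shrinks genes with few reads, and 8 of the 9 genes had a mean value of at least 5, which sets them apart from many of the genes tested. The comparisons of H2O2 and of NCS with untreated cells share the same 3 untreated libraries. With 3 libraries in each group, 0.1 is the smallest p-value that an exact two-sided permutation test of 1 gene can reach.

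**Figure D2:**
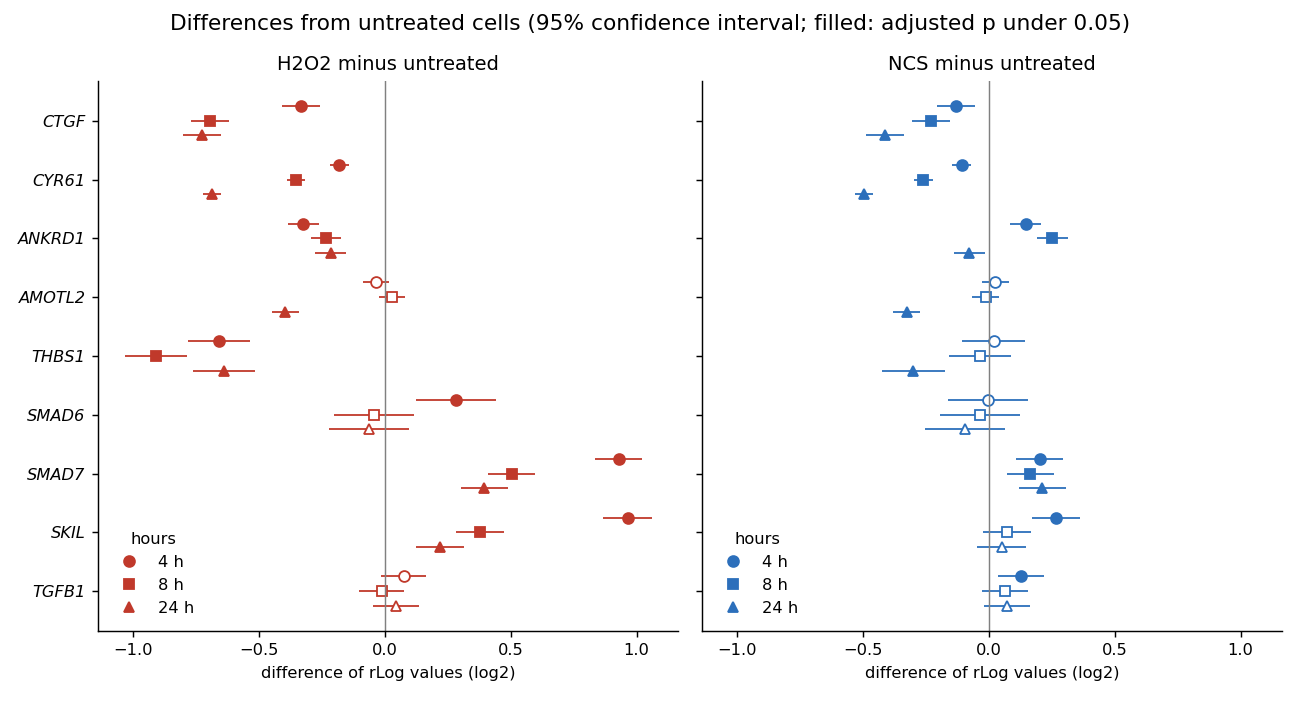
Difference of rLog values (log2) from untreated cells for each gene in H2O2 (left) and NCS (right), with circles for 4 h, squares for 8 h and triangles for 24 h; bars are 95% confidence intervals and filled symbols have an adjusted p-value under 0.05 (limma). H2O2 values run from -0.91 for THBS1 at 8 h to 0.96 for SKIL at 4 h, and NCS values stay between -0.50 and 0.27.

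CTGF, a secreted matricellular protein of the CCN family that binds integrins and growth factors, fell with both drugs at every time. Its values were 15.14, 15.20 and 15.20 in the untreated libraries. In H2O2 libraries the values were 14.84, 14.83 and 14.86 at 4 h, then 14.42, 14.61 and 14.42 at 8 h and finally 14.43, 14.45 and 14.47 at 24 h. In NCS libraries they were 15.06, 15.06 and 15.02 at 4 h, then 14.93, 14.96 and 14.95 at 8 h and finally 14.79, 14.73 and 14.78 at 24 h. Each of the 6 treated groups lay wholly below the untreated libraries. The difference from untreated cells in H2O2 was -0.34 (SE 0.04, adjusted p = 4.4e-07) at 4 h, -0.69 (adjusted p = 1.2e-10) at 8 h and -0.73 (adjusted p = 6.3e-12) at 24 h, the last being 1.65-fold lower on this scale. Without replicate 2 of H2O2 at 8 h, the difference at 8 h was -0.76. In NCS it was -0.13 (adjusted p = 0.015) at 4 h, -0.23 (adjusted p = 7.2e-05) at 8 h and -0.41 (adjusted p = 2.2e-08) at 24 h. The call at 4 h in NCS was lost without untreated replicate 2 (-0.12, adjusted p = 0.058), untreated replicate 3 (-0.12, adjusted p = 0.052) or NCS replicate 3 (-0.12, adjusted p = 0.066). In order of level, the groups ran from untreated through NCS at 4 and 8 h, H2O2 at 4 h, NCS at 24 h and H2O2 at 8 h to H2O2 at 24 h, and only the last 2 overlapped.

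CYR61, the other CCN protein among these genes and an early target of YAP, fell with both drugs at every time. Untreated libraries had 15.06, 15.12 and 15.06. In H2O2 libraries the values were 14.89, 14.88 and 14.92 at 4 h, then 14.75, 14.71 and 14.72 at 8 h and finally 14.39, 14.39 and 14.39 at 24 h. In NCS libraries they were 14.98, 14.98 and 14.95 at 4 h, then 14.84, 14.81 and 14.81 at 8 h and finally 14.59, 14.58 and 14.58 at 24 h. No 2 of the 7 groups next to each other in level overlapped, and at each time H2O2 lay below NCS. The difference from untreated cells was -0.18, -0.35 and -0.69 at 4, 8 and 24 h in H2O2 (SE 0.02 each, adjusted p at most 9.7e-08) and -0.11, -0.26 and -0.50 in NCS (adjusted p at most 0.00014). Without replicate 2 of H2O2 at 8 h, the difference at 8 h was -0.34. In H2O2 at 24 h CYR61 was 1.61-fold lower than in untreated cells. With quantile normalization the difference in NCS at 4 h was -0.17.

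ANKRD1, a stress-induced ankyrin repeat protein of muscle and other cells and a YAP target, moved in opposite directions in the 2 treatments. Untreated libraries had 14.62, 14.74 and 14.62. In H2O2 libraries the values were 14.32, 14.32 and 14.37 at 4 h, then 14.45, 14.44 and 14.39 at 8 h and finally 14.42, 14.43 and 14.49 at 24 h. In NCS libraries they were 14.78, 14.81 and 14.82 at 4 h, then 14.91, 14.89 and 14.94 at 8 h and finally 14.59, 14.57 and 14.58 at 24 h. All 9 H2O2 libraries were below every untreated library, and the 6 NCS libraries at 4 and 8 h were above them. ANKRD1 fell in H2O2 by 0.33 (SE 0.03, adjusted p = 4.9e-08) at 4 h, 0.23 (adjusted p = 3.5e-06; -0.24 without replicate 2) at 8 h and 0.22 (adjusted p = 6.1e-06) at 24 h. It rose in NCS by 0.14 (adjusted p = 0.0015) at 4 h and 0.25 (adjusted p = 2.8e-06) at 8 h. At 24 h in NCS it was lower by a small amount (-0.08, adjusted p = 0.043). That call was lost without untreated replicate 2 (-0.04, adjusted p = 0.31) or any of the 3 NCS libraries (adjusted p between 0.066 and 0.11). It was also lost in a fit of only the 2 groups compared (adjusted p = 0.16), without a filter on low values (adjusted p = 0.061), without a mean-variance trend (adjusted p = 0.051) and with the replicate numbers as a block (adjusted p = 0.0501), while with quantile normalization the difference was -0.14 (adjusted p = 0.0012).

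AMOTL2, an angiomotin family protein that is raised by YAP and binds it in turn, passed the test against untreated cells at 24 h alone. Untreated libraries had 12.57, 12.65 and 12.59. At 24 h the values were 12.22, 12.22 and 12.18 in H2O2 and 12.28, 12.26 and 12.28 in NCS, wholly below them. At 4 h they were 12.56, 12.55 and 12.60 in H2O2 and 12.63, 12.64 and 12.62 in NCS, and at 8 h 12.67, 12.56 and 12.66 in H2O2 and 12.60, 12.58 and 12.59 in NCS. These 4 groups overlapped the untreated libraries. The difference at 24 h was -0.40 in H2O2 (SE 0.02, adjusted p = 2.1e-10) and -0.33 in NCS (adjusted p = 3.5e-09). At 4 h it was -0.03 in H2O2, with a 95% confidence interval from -0.09 to 0.02, and 0.02 in NCS (-0.03 to 0.08). At 8 h it was 0.03 in H2O2 (-0.02 to 0.08), which became 0.06 (adjusted p = 0.030) without replicate 2 of that group, and -0.01 in NCS (-0.07 to 0.04).

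THBS1, thrombospondin-1, fell the most of the 9 genes, and in H2O2 it did so from the first time measured. Untreated libraries had 16.51, 16.63 and 16.49. In H2O2 libraries the values were 15.91, 15.89 and 15.86 at 4 h, then 15.53, 15.85 and 15.52 at 8 h and finally 15.92, 15.89 and 15.91 at 24 h. In NCS libraries they were 16.56, 16.59 and 16.55 at 4 h, then 16.48, 16.50 and 16.54 at 8 h and finally 16.27, 16.22 and 16.24 at 24 h. The 9 H2O2 libraries were below all others, the NCS libraries at 4 and 8 h overlapped the untreated ones, and those at 24 h did not. The difference from untreated cells in H2O2 was -0.66 (SE 0.06, adjusted p = 4.7e-08) at 4 h, -0.91 (adjusted p = 1.5e-09) at 8 h and -0.64 (adjusted p = 4.4e-08) at 24 h. At 8 h, the level was 1.88-fold lower, and without replicate 2 of that group the difference was -1.02. In NCS the difference was 0.02 at 4 h (-0.11 to 0.14) and -0.04 at 8 h (-0.16 to 0.09), and at 24 h it was -0.30 (adjusted p = 0.00039). With quantile normalization, the difference at 24 h was -0.38 in H2O2 (adjusted p = 0.0011), and the call at 24 h in NCS was lost (-0.17, adjusted p = 0.12).

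SMAD7, which blocks the activated TGF-beta receptor, rose with both drugs and the most in H2O2 at 4 h. Untreated libraries had 7.84, 7.97 and 7.92. In H2O2 libraries the values were 8.90, 8.82 and 8.80 at 4 h, then 8.45, 8.38 and 8.42 at 8 h and finally 8.34, 8.32 and 8.25 at 24 h. In NCS libraries they were 8.09, 8.10 and 8.14 at 4 h, then 8.02, 8.16 and 8.04 at 8 h and finally 8.06, 8.15 and 8.15 at 24 h. Every treated library was above every untreated one, and the 3 NCS groups overlapped each other. In H2O2 SMAD7 was higher by 0.93 (SE 0.04, adjusted p = 1.1e-11) at 4 h, 0.50 (adjusted p = 5.6e-08; 0.52 without replicate 2) at 8 h and 0.40 (adjusted p = 6.1e-07) at 24 h, and its level at 4 h was 1.90-fold that of untreated cells. In NCS it was higher by 0.20 (adjusted p = 0.0031), 0.16 (adjusted p = 0.010) and 0.21 (adjusted p = 0.00072). The call at 8 h in NCS was lost without untreated replicate 1 (0.13, adjusted p = 0.070) or NCS replicate 2 (0.12, adjusted p = 0.074), and in a fit of only the 2 groups compared (adjusted p = 0.094).

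SKIL codes for SnoN, a co-repressor that binds the receptor-activated SMADs, and it followed a similar course. Untreated libraries had 9.78, 9.79 and 9.68. In H2O2 libraries the values were 10.78, 10.66 and 10.71 at 4 h, then 10.23, 10.09 and 10.08 at 8 h and finally 10.02, 9.98 and 9.92 at 24 h. In NCS libraries they were 9.99, 10.03 and 10.04 at 4 h, then 9.88, 9.85 and 9.74 at 8 h and finally 9.83, 9.76 and 9.81 at 24 h. All 3 H2O2 groups and the NCS group at 4 h lay above the untreated libraries, and the later NCS groups overlapped them. The rise in H2O2 was 0.96 (SE 0.05, adjusted p = 1.1e-11) at 4 h, or 1.95-fold, then 0.38 (adjusted p = 2.5e-06; 0.40 without replicate 2) at 8 h and 0.22 (adjusted p = 0.00067) at 24 h. The rise in NCS was 0.27 (adjusted p = 0.00037) at 4 h. At 8 and 24 h in NCS the differences were 0.07 (-0.02 to 0.17) and 0.05 (-0.05 to 0.15).

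SMAD6, which mainly inhibits bone morphogenetic protein signaling, had a mean value of 3.90 over all libraries, and the rLog shrinks genes with few reads the most. Untreated libraries had 3.83, 3.91 and 3.96, and H2O2 at 4 h had 3.99, 4.18 and 4.37, just above them. The other 15 libraries lay between 3.78 and 4.05. SMAD6 was higher in H2O2 at 4 h by 0.28 (SE 0.08, adjusted p = 0.0050). With quantile normalization the difference was 0.11 (adjusted p = 0.26), and in a fit of only the 2 groups compared its adjusted p was 0.075. In the remaining 5 comparisons with untreated cells the differences lay between -0.10 and 0.00, and their 95% confidence intervals together ran from -0.26 to 0.16.

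TGFB1, the ligand that starts the TGF-beta cascade, stayed between 10.91 and 11.14 in all 21 libraries. Untreated libraries had 10.94, 11.01 and 10.97 and NCS libraries at 4 h had 11.11, 11.11 and 11.08. The difference at that time was 0.13 (SE 0.04, adjusted p = 0.049). It did not pass the test when any 1 of these 6 libraries was left out, with differences between 0.11 and 0.15 and adjusted p-values between 0.051 and 0.17, nor without a mean-variance trend (adjusted p = 0.064) or without a filter on low values (adjusted p = 0.080). The remaining 5 differences were between -0.01 and 0.07 and did not pass the test. None of the 95% confidence intervals against untreated cells went beyond -0.10 or 0.22.

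H2O2 was then compared with NCS at the same time, where time in fresh medium is shared. At 4 h, 3 of the 9 genes were higher in H2O2 and 4 lower, against 26.3% and 18.0% of all genes. At 8 h the counts were 2 and 4, against 18.7% and 15.4% (3 and 4 without replicate 2 of H2O2 at 8 h, against 20.0% and 16.0%), and at 24 h 2 and 4, against 11.0% and 10.9%. With aligned library medians, 7585 of all 19694 genes were called at 24 h in place of 4315. SMAD7 and SKIL were higher in H2O2 at all 3 times, and CTGF, CYR61, ANKRD1 and THBS1 were lower at all 3 times. AMOTL2 and TGFB1 passed the test at no time. SMAD7 was higher by 0.73, 0.34 and 0.18 (adjusted p at most 0.0053) and SKIL by 0.70, 0.31 and 0.17 (adjusted p at most 0.012). The SKIL call at 24 h was lost without H2O2 replicate 1 (0.14, adjusted p = 0.062) or NCS replicate 2 (0.15, adjusted p = 0.055). THBS1 was lower by 0.68, 0.87 and 0.34, and at 8 h its level was 1.83-fold lower in H2O2 than in NCS (adjusted p = 4.5e-09). ANKRD1 was lower by 0.47, 0.49 and 0.14, CTGF by 0.20, 0.46 and 0.31, and CYR61 by 0.07, 0.09 and 0.19 (adjusted p at most 0.0022 for each of these). Without replicate 2 of H2O2 at 8 h, the differences at 8 h were -0.98 for THBS1, -0.52 for CTGF, -0.49 for ANKRD1, -0.08 for CYR61, 0.36 for SMAD7 and 0.33 for SKIL, and AMOTL2 was higher by 0.07 (adjusted p = 0.011). SMAD6 was higher by 0.28 at 4 h (adjusted p = 0.0049), although 1 H2O2 library (3.99) was below 1 NCS library (4.05), and the call was lost with quantile normalization (0.11, adjusted p = 0.24) and in a fit of only the 2 groups (adjusted p = 0.089). Quantile normalization also ended the calls at 24 h for ANKRD1 (-0.04, adjusted p = 0.51) and THBS1 (-0.21, adjusted p = 0.091) and brought the differences of CTGF and CYR61 at 24 h to -0.21 and -0.11. The AMOTL2 differences were -0.06 at 4 h (-0.11 to -0.01, adjusted p = 0.062), 0.04 at 8 h (-0.01 to 0.09) and -0.07 at 24 h (-0.12 to -0.02, adjusted p = 0.062). Quantile normalization and a fit of only the 2 groups called the one at 4 h (adjusted p = 0.0011 and 0.031), as did leaving out H2O2 replicate 3 (adjusted p = 0.039). The one at 24 h was called with aligned library medians (adjusted p = 0.010), when SMAD6 and other genes with a mean below 5 were removed (adjusted p = 0.040) and in a fit of only the 2 groups (adjusted p = 0.040).

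**Figure D3:**
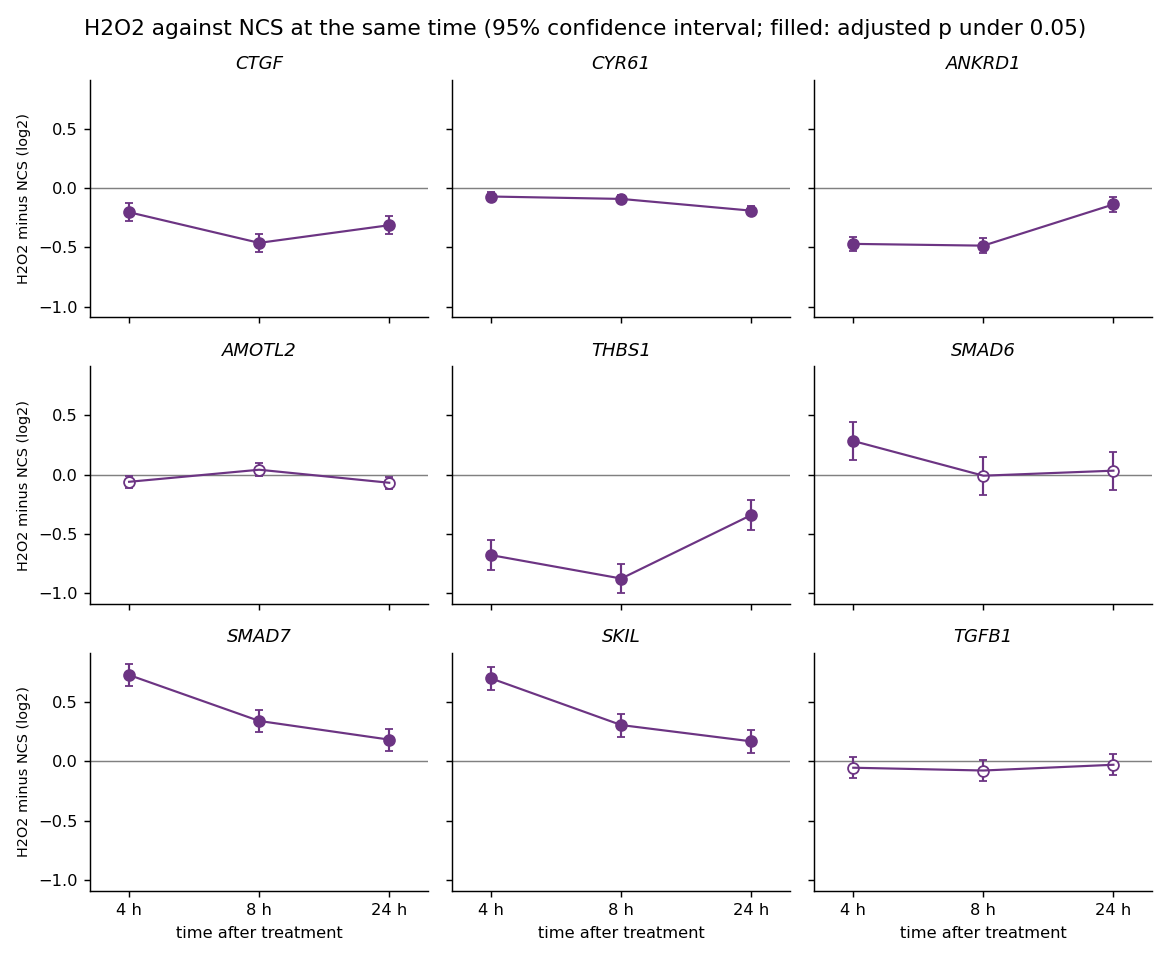
H2O2 minus NCS at the same time (difference of rLog values, log2) for each gene at 4, 8 and 24 h; bars are 95% confidence intervals and filled symbols have an adjusted p-value under 0.05 (limma). SMAD7 and SKIL start near 0.7 and come down toward 0, THBS1 and ANKRD1 start low and come up by 24 h, and the CYR61 difference widens to -0.19.

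The size of the H2O2 and NCS difference was tested for change over time. From 4 to 8 h, 5 of the 9 genes differed in this way, where 32.7% of all genes did, and from 4 to 24 h, 5 genes, where 39.4% of all genes did. The excess of SMAD7 in H2O2 over NCS shrank by 24 h from 0.73 to 0.18 (change -0.54, SE 0.06, adjusted p = 2e-06), and that of SKIL from 0.70 to 0.17 (change -0.53, adjusted p = 4e-06). The deficits of THBS1 and ANKRD1 shrank as well, by 0.34 (adjusted p = 0.0034; 0.53 with quantile normalization) and 0.33 (adjusted p = 4.8e-06). That of CYR61 grew (change -0.12, adjusted p = 0.00070), a call lost with quantile normalization (-0.04, adjusted p = 0.14). The deficit of CTGF grew between 4 and 8 h (change -0.26, adjusted p = 0.00069) and was -0.32 without replicate 2 of H2O2 at 8 h.

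Within H2O2, 8 of the 9 genes changed between 4 and 8 h, where 45.7% of all genes did. CTGF (-0.36), CYR61 (-0.17), THBS1 (-0.25), SMAD7 (-0.43), SKIL (-0.59) and SMAD6 (-0.33) went down, and ANKRD1 (0.09) and AMOTL2 (0.06) went up. Without replicate 2 at 8 h, the steps were -0.42 for CTGF, -0.16 for CYR61, -0.41 for SMAD7, -0.57 for SKIL, -0.34 for SMAD6 and 0.09 for ANKRD1. With quantile normalization the steps of CYR61 and SMAD6 were -0.11 and -0.20. The THBS1 step was -0.36 without replicate 2 at 8 h, and its call was lost with quantile normalization (-0.16, adjusted p = 0.13) and in a fit of only the 2 groups (adjusted p = 0.085). Leaving out replicate 1 or 2 at 4 h or replicate 1 at 8 h ended the call for ANKRD1 (0.08, adjusted p between 0.058 and 0.070), and leaving out any of these or replicate 3 at 8 h ended that for AMOTL2 (0.05 to 0.06, adjusted p between 0.12 and 0.19). The AMOTL2 call was also lost in a fit of only the 2 groups (adjusted p = 0.21), without a filter on low values (adjusted p = 0.053) and with the replicate numbers as a block (adjusted p = 0.057), and its step was 0.10 without replicate 2 at 8 h. Between 8 and 24 h 4 genes changed (42.6% of all genes). CYR61 (-0.34), AMOTL2 (-0.42) and SKIL (-0.16) went down and THBS1 (0.27) came back up. Without replicate 2 at 8 h these were -0.34, -0.46, -0.18 and 0.38. In a fit of only the 2 groups, THBS1 (adjusted p = 0.063) and SKIL (adjusted p = 0.052) did not pass the test, and SKIL did not without replicate 1 at 8 h (-0.11, adjusted p = 0.066). CTGF differed by -0.03 (-0.11 to 0.04) over that interval, and by 0.03 without replicate 2 at 8 h. SMAD7 differed by -0.11 (adjusted p = 0.058), which passed the test without that library (-0.13, adjusted p = 0.0497) and with aligned library medians (adjusted p = 0.032).

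Within NCS, 3 genes changed between 4 and 8 h, where 13.7% of all genes did: CYR61 by -0.15, SKIL by -0.19 and ANKRD1 by 0.11. The ANKRD1 call was lost without replicate 1 or 2 at 4 h or replicate 1 or 3 at 8 h (0.09 to 0.11, adjusted p between 0.051 and 0.088). Between 8 and 24 h 5 genes changed, all downward, where 29.9% of all genes changed. They were ANKRD1 (-0.33), AMOTL2 (-0.31), THBS1 (-0.26), CYR61 (-0.24) and CTGF (-0.18), the 4 YAP targets and THBS1. With aligned library medians, 9825 of all 19694 genes changed in place of 5883. SMAD7, SKIL, SMAD6 and TGFB1 did not pass the test in that interval, with differences of 0.05 (-0.04 to 0.14), -0.02 (-0.12 to 0.07), -0.06 (-0.22 to 0.10) and 0.01 (-0.08 to 0.10).

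Other genes of the same pathways were read from lists made by hand, and some genes are on more than 1 list (LATS2, PTPN14, TGFB2, LTBP2, TGIF1, ACTA2 and TAGLN). Without replicate 2 of H2O2 at 8 h, which was tried after the data were seen, counts against untreated cells at 8 h moved by at most 2 in either direction for every list given here. Of 18 other YAP targets, 3 were higher and 14 lower in H2O2 at 4 h, with a median of -0.23, 3 higher and 10 lower at 8 h (median -0.11), and 3 higher and 11 lower at 24 h (median -0.12). In NCS the counts were 3 and 7, 2 and 7, and 6 and 8, with medians of -0.03, -0.01 and -0.03. The median over all genes was within 0.01 of 0 in each of these comparisons. Among all genes, 26.2%, 18.8% and 20.2% were higher and 19.7%, 18.6% and 19.9% lower in H2O2 at 4, 8 and 24 h. The shares in NCS were 7.47%, 10.5% and 19.6% higher and 9.72%, 13.3% and 18.4% lower. At 4 h in H2O2, RBMS3 fell by 0.49 and DOCK5 by 0.43, while F3, the tissue factor that starts blood coagulation, rose by 0.53. IGFBP3, which binds insulin-like growth factors, was lower by 0.72 in H2O2 at 24 h (adjusted p = 1.5e-09), CRIM1 by 0.62 and FJX1 by 0.52. F3 rose in NCS too, by 0.53 at 4 h and 0.75 at 8 h, as did NUAK2, a kinase related to AMPK, by 0.80 and 0.39. FOXF2 fell in NCS by 0.41, 0.46 and 0.35 at 4, 8 and 24 h. Against NCS at 8 h, 4 of the 18 were higher in H2O2 and 14 lower (median -0.17), where 18.7% and 15.4% of all genes were. Without replicate 2 of H2O2 at 8 h the counts were again 4 and 14.

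MRTF, a co-activator of SRF, is held in check by free actin, and together with SRF it drives cytoskeletal genes. Of 20 such genes, 6 were higher and 5 lower in H2O2 at 4 h, 1 higher and 18 lower at 8 h (median -0.17; 1 and 17 without replicate 2), and 1 higher and 19 lower at 24 h (median -0.32). In NCS the counts were 6 and 1, 1 and 4, and 2 and 13, with a median of -0.14 at 24 h. Among all genes, 26.2%, 18.8% and 20.2% were higher and 19.7%, 18.6% and 19.9% lower in H2O2 at 4, 8 and 24 h. The shares in NCS were 7.47%, 10.5% and 19.6% higher and 9.72%, 13.3% and 18.4% lower. Smooth muscle actin ACTG2 (-0.77), calponin CNN1 (-0.73) and cytoplasmic actin ACTB (-0.68, adjusted p = 9.5e-14) had the largest falls in H2O2 at 24 h. In NCS at that time, ACTB was lower by 0.40 and ACTG1 by 0.33. FHL2, a LIM domain protein, was the gene of the list that rose in H2O2 at 8 h (0.32, and 0.38 without replicate 2), and it rose in NCS by 0.27, 0.34 and 0.34. Against NCS at 24 h, none of the 20 was higher in H2O2 and 15 were lower (limma, median -0.21), against 11.0% and 10.9% of all genes.

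The other TGF-beta targets did not share 1 direction. Of 18 such genes, 12 were higher and 3 lower in H2O2 at 4 h (median 0.18), 8 higher and 7 lower at 8 h, and 7 in each direction at 24 h. In NCS the counts were 5 and 3, 4 and 2, and 11 and 1, with a median of 0.16 at 24 h. Among all genes, 26.2%, 18.8% and 20.2% were higher and 19.7%, 18.6% and 19.9% lower in H2O2 at 4, 8 and 24 h. The shares in NCS were 7.47%, 10.5% and 19.6% higher and 9.72%, 13.3% and 18.4% lower. In H2O2 at 4 h, BHLHE40, a clock-related repressor, rose by 1.89 (adjusted p = 7.8e-15), the cytokine IL11 by 1.06 and SNAI1 by 0.67. COL1A2, a chain of collagen I, was lower by 0.44 in H2O2 at 8 h (-0.50 without replicate 2). CDKN2B, which codes for the cell cycle inhibitor p15, was higher at 24 h in both drugs, by 0.81 in H2O2 and 0.70 in NCS, and PMEPA1, another feedback inhibitor, by 0.62 and 0.46. TGIF1, a SMAD co-repressor, was lower in NCS at 4 h (-0.69) and higher in H2O2 at 8 and 24 h (0.43, or 0.50 without replicate 2, and 0.55), a difference between drugs of 0.88 at 4 h (adjusted p = 6.8e-10).

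**Figure D4:**
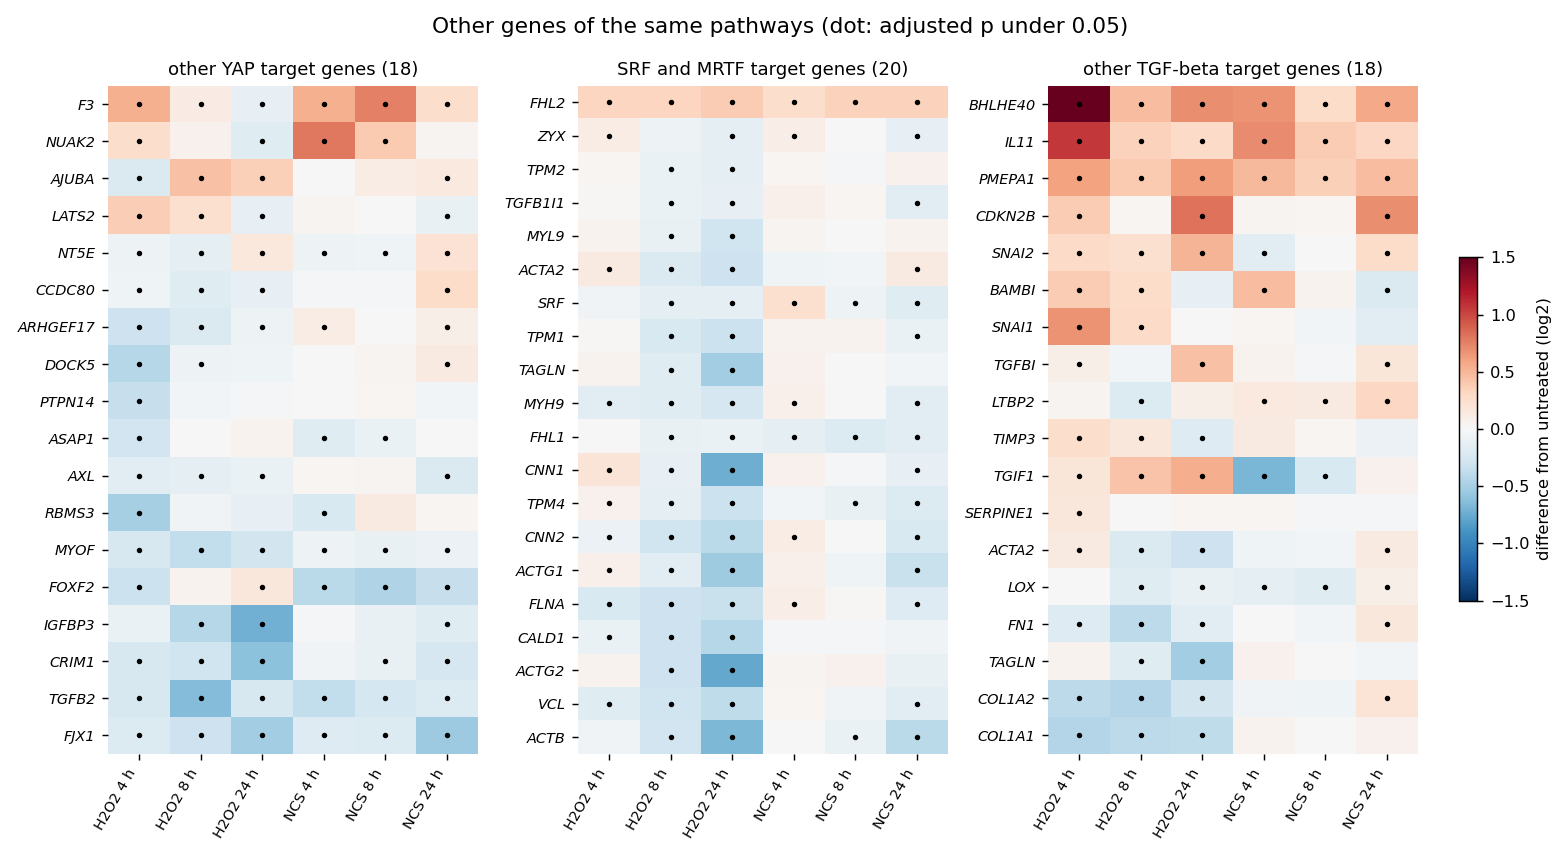
Difference from untreated cells (log2, color scale from -1.5 to 1.5) of 18 other YAP targets, 20 SRF and MRTF targets and 18 other TGF-beta targets (rows) in the 6 treated groups (columns); dots mark an adjusted p-value under 0.05 (limma), and genes are ordered by their mean difference. In H2O2 at 24 h, 19 of the 20 SRF and MRTF targets are lower, against 19.9% of all genes. BHLHE40 in H2O2 at 4 h, at 1.89, goes beyond the color scale.

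Genes that act upstream were read as well. Among all genes, 26.2%, 18.8% and 20.2% were higher and 19.7%, 18.6% and 19.9% lower in H2O2 at 4, 8 and 24 h. The shares in NCS were 7.47%, 10.5% and 19.6% higher and 9.72%, 13.3% and 18.4% lower. Of 20 Hippo and YAP pathway genes, 2 were higher and 12 lower in H2O2 at 4 h (median -0.14), 6 higher and 8 lower at 8 h (4 and 8 without replicate 2), and 2 higher and 6 lower at 24 h. In NCS the counts were 2 and 4, 3 and 7, and 2 and 8. In H2O2 at 4 h, the Hippo kinase STK4 was lower by 0.36 and the kinase LATS2, itself a YAP target, higher by 0.36. By 8 h STK4 was higher than in untreated cells (0.20, and 0.23 without replicate 2), and LATS2 was still higher (0.24 and 0.27). TEAD4, a DNA-binding partner of YAP, was lower at 24 h in H2O2 (-0.51, adjusted p = 5.6e-08) and in NCS (-0.46, adjusted p = 2.4e-07). NF2, an activator of the Hippo kinases, was lower in H2O2 at 24 h than in untreated cells (-0.31) and than in NCS (-0.31). Of 31 TGF-beta ligands, receptors and SMADs, 6 were higher and 12 lower in H2O2 at 4 h, 8 higher and 12 lower at 8 h (8 and 14 without replicate 2), and 9 higher and 10 lower at 24 h, and in NCS 5 and 8, 4 and 9, and 10 and 8. The activin antagonist FST rose by 0.91 and 0.94 in H2O2 and by 0.97 and 0.82 in NCS at 4 and 8 h, and INHBA, the activin A subunit, by 0.67 and 0.58 in H2O2 and 0.67 and 0.48 in NCS. Without replicate 2 of H2O2 at 8 h, FST was higher by 1.03 and INHBA by 0.62 at that time. TGFB2 was lower in H2O2 at 8 h (-0.65, and -0.71 without replicate 2), and at 24 h in H2O2 the receptor TGFBR2 was higher (0.48) and SMAD3 lower (-0.46). Of 12 other matricellular genes, of which 6 had a mean value of at least 5, 5 were higher and 0 lower in H2O2 at 4 h, 0 higher and 1 lower at 8 h (2 and 1 without replicate 2), and 4 higher and 2 lower at 24 h (limma), and in NCS 2, 2 and 3 were higher and 0 lower. THBS2 and THBS3, which are related to THBS1, were higher at 24 h, by 0.49 and 0.45 in H2O2 and by 0.39 and 0.63 in NCS.

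Across the 21 libraries of the 7 groups, the genes with the most similar pattern among 11681 with a mean value of at least 5 were ranked by Pearson's r. The libraries of a group share their treatment, so these values describe the likeness and were not tested. For CTGF they were SORT1 (r = 0.98), SRPK1 (0.97) and VCL (0.96), which codes for the focal adhesion protein vinculin. For CYR61 they were DAG1, TUBB4B and KPNB1 (0.98 each). For ANKRD1 they were FAT1 (0.95), CSPG4 (0.94) and C2CD3 (0.93). For AMOTL2 they were TYMS (0.98) and CDC6 (0.97), which serve DNA synthesis and replication, and EHD4 (0.97). For THBS1 they were GNAQ, COL12A1 and COL4A1 (0.96 each), the last 2 being collagens. For SMAD7 they were RND3, CHMP1B and SIK1 (0.97 each), and for SKIL SLC19A2, KLF10 (0.98 each) and CHMP1B (0.97). KLF10 is a known early TGF-beta response gene. For SMAD6 (DGUOK 0.85, C9orf37 0.83) and TGFB1 (MMP17 0.87, EPN1 0.85, TRAPPC5 0.79) the likeness was lower. Among the 9 genes, SMAD7 and SKIL were closest (r = 0.94), followed by THBS1 with CTGF and with ANKRD1 (0.86 each) and CYR61 with AMOTL2 (0.85) and with CTGF (0.84). SMAD7 ran against THBS1 and ANKRD1 (r = -0.74 each).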

How the data were processed

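The RNA-seq data are from 7 groups of hTERT-HPNE cells with 3 biological replicates each. Per the labels and the study's methods, the authors prepared stranded mRNA libraries, used HISAT2 for alignment and HTSeq for counts per gene, both within Galaxy, and transformed the counts with DESeq2. The deposited values are the authors' rLog values on a log2 scale over all 21 libraries. The submitters' processing notes name hg19; the annotation and tool versions are not given in the sources used here. Promoter windows came from RefSeq (GRCh38.p14), and no coordinates were carried between builds. The values hold no counts, so depth is unknown and no counting interval or detection floor was calculated.

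No further normalization was applied. Of 23368 genes, 3674 did not vary between libraries and were dropped, which left 19694 for testing, and 2 gene names occur repeatedly. A single limma model (version 3.58.1, R 4.3.3) held all 7 groups, used a mean-variance trend, and adjusted p-values by Benjamini-Hochberg across the tested genes of each comparison. There were 6 comparisons with untreated cells, 3 of H2O2 with NCS, 4 between successive times and 2 of the change over time in the difference between H2O2 and NCS. A gene was called at an adjusted p-value under 0.05. The fit was tested on simulated data. The 9 genes, the lists and the motifs were chosen with earlier results of these data known. From each list, up to 3 genes with the largest absolute difference among those called with replicates that did not overlap could be named in each comparison, and for each of the 9 genes the 3 genes with the highest Pearson's r. 1 gene so chosen is not reported here. The alternatives were quantile normalization, aligned library medians, no filter on low values, a minimum mean of 5, a replicate block, a fit of only the groups compared, no mean-variance trend, a log2 difference over 0.58 or 1, and each library left out in turn. The lists without replicate 2 of H2O2 at 8 h were added after the data were seen. Other calculations used Python 3.11.15 (pandas 2.3.3, numpy 2.4.6, matplotlib 3.10.9, scipy 1.17.1).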

Additional observations from a re-analysis of the deposited data

Results flagged for a closer look

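By limma's test of the change itself, the difference between H2O2 and NCS changed from 4 to 8 h or from 4 to 24 h for 8 of the 9 genes and for 49.0% of all genes tested. From 4 to 8 h, it changed by -0.39 for SMAD7 (adjusted p = 0.00012), -0.39 for SKIL (adjusted p = 0.00014) and -0.26 for CTGF (adjusted p = 0.00069). SMAD6 (-0.29, adjusted p = 0.044) and AMOTL2 (0.10, adjusted p = 0.034) passed as well. From 4 to 24 h, it changed by -0.54 for SMAD7, -0.53 for SKIL, 0.34 for THBS1, 0.33 for ANKRD1 and -0.12 for CYR61. The change for THBS1 from 4 to 8 h was -0.20 (adjusted p = 0.081) and became -0.31 (adjusted p = 1.9e-05) without replicate 2 of H2O2 at 8 h. Without that library the changes to 8 h were -0.37 for SMAD7, -0.37 for SKIL, -0.32 for CTGF and 0.13 for AMOTL2.

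The CYR61 call was lost with quantile normalization (-0.04, adjusted p = 0.14). The SMAD6 call was lost with quantile normalization (-0.15, adjusted p = 0.31), without a filter on low values (adjusted p = 0.061) and in a fit of only the groups compared (adjusted p = 0.12). It was also lost without replicate 2 or 3 of H2O2 at 4 h, any replicate of H2O2 at 8 h, replicate 2 or 3 of NCS at 4 h or any replicate of NCS at 8 h (values between -0.31 and -0.20, adjusted p between 0.051 and 0.12). The AMOTL2 call was lost in a fit of only the groups compared (adjusted p = 0.061) and without replicate 1 or 2 of H2O2 at 4 h, replicate 1 or 3 of H2O2 at 8 h, replicate 1 or 2 of NCS at 4 h or replicate 2 or 3 of NCS at 8 h (values between 0.08 and 0.10, adjusted p between 0.053 and 0.093). For TGFB1 neither change passed the test, with values of -0.02 (-0.15 to 0.10) and 0.02 (-0.10 to 0.15).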

How the results depend on the processing

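Over all 15 comparisons, 85 of 135 differences of the 9 genes were called, and 66 of these were called under every alternative that could be run, apart from the limits on the log2 difference. Among all genes, 7.47% to 26.3% were called in each direction against untreated cells or between drugs. In the other comparisons, 13.7% to 45.7% were called in either direction. A share pooled over the comparisons was not calculated. No called difference changed sign under any alternative. A mean value of at least 5 removed SMAD6, which gives no value there. With the limit on the log2 difference at 1, 0 of the 9 genes were called in any comparison of the main fit (limma). Without replicate 2 of H2O2 at 8 h, THBS1 passed that limit at 8 h (-1.02). SKIL in H2O2 at 4 h reached 1.002 among the alternatives. At an unadjusted p-value under 0.05 (limma), 4 to 8 genes passed in each comparison. The limits of 1 and 0.58 apply to shrunken rLog differences. Shares of all genes at these limits and at the unadjusted p-value were not calculated. With the limit at 0.58, 3 genes were called in H2O2 at 4 h and 3 at 24 h, 2 in H2O2 at 8 h, 3 for H2O2 against NCS at 4 h, 1 at 8 h and 1 for H2O2 from 4 to 8 h, and 0 in the remaining 9 comparisons (limma). In fits of only the groups compared, 2 in place of 4 were called for H2O2 from 8 to 24 h and 3 in place of 5 for the change between drugs from 4 to 8 h. Leaving out 1 library gave 3 to 5 genes in that last comparison, where 5 were called, with 3 called without replicate 2 of H2O2 at 4 h, replicate 1 or 3 of H2O2 at 8 h, replicate 2 of NCS at 4 h, or replicate 2 or 3 of NCS at 8 h. Over the other comparisons a count moved by at most 2 when 1 library was left out.

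Over all comparisons, 39 alternative values had the other sign, all for differences that passed the test in neither fit. Those in the comparisons with untreated cells and of H2O2 with NCS are given here. With quantile normalization TGFB1 in H2O2 at 8 h became 0.0037, AMOTL2 in NCS at 8 h 0.023 and THBS1 in NCS at 8 h 0.11, and with aligned medians SMAD6 in H2O2 against NCS at 8 h became 0.013. With 1 library left out, values ran from -0.031 to 0.0095 for TGFB1 in H2O2 at 8 h, from -0.0073 to 0.061 for THBS1 in NCS at 4 h, from -0.078 to 0.057 for SMAD6 in NCS at 4 h, from -0.029 to 0.0090 for AMOTL2 in NCS at 8 h, from -0.062 to 0.0068 for THBS1 in NCS at 8 h, from -0.030 to 0.024 for SMAD6 in H2O2 against NCS at 8 h, and from -0.059 to 0.0053 for TGFB1 in H2O2 against NCS at 24 h. Over all genes, aligned medians raised the calls from 4703 to 7618 in NCS at 8 h, from 4315 to 7585 for H2O2 against NCS at 24 h and from 5883 to 9825 for NCS from 8 to 24 h. The shares of all genes given beside the counts in these comparisons are those without aligned medians. The cause of the rise was not tested.

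The labels number the replicates 1 to 3 in every group. Deviations from group means correlated with a mean r of 0.027 between libraries of the same number in different groups (63 pairs, 12 of them over 0.1). Between different numbers the mean r was -0.014 (126 pairs, 7 of them over 0.1), so values over 0.1 were more frequent for the same number. The main fit did not take the numbers as pairs. With the numbers as a replicate block, 2 calls were lost, ANKRD1 in NCS at 24 h (-0.08, adjusted p = 0.0501) and AMOTL2 in H2O2 from 4 to 8 h (0.06, adjusted p = 0.057), and no other call changed. Depth could not be weighed, since the values hold no counts.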
